A study of Homo sapiens with 12 samples.

Results

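The genes described here are the expressed LINC genes of 2 human colorectal cancer cell lines, 280 of the 62656 genes in the deposited count table. LINC followed by a number is the symbol given to long intergenic non-coding RNA genes. A gene was selected on its level: its symbol was LINC and digits only, and its mean CPM, the read count scaled to 1 M counts per library, was 1 or more in at least 1 of 4 groups. Of 2287 such symbols in the table, 997 had no read in any of the 12 libraries and 2007 stayed under the minimum in every group. The 4 groups, with 3 libraries each, were HCT116 cells that overexpress SLERT, a long non-coding RNA (OE), HCT116 control cells, LoVo cells in which SLERT was knocked down (KD) and LoVo control cells. HCT116 and LoVo are established epithelial lines from colorectal tumours, grown without host tissue. The HCT116 control columns are headed as vector, and the LoVo columns as Sh for the knockdown and ShNC for its control. The labels do not give the construct, the hairpin sequence or the number of clones, and they do not say whether the libraries of a group were separate cultures, so a p-value covers the spread among libraries, which may be technical.

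Long intergenic non-coding RNAs are transcribed by RNA polymerase II, are usually spliced, capped and polyadenylated like messenger RNAs, and do not code for a known protein. Most are made at low level and in few cell types. Many start close to the promoter of a protein-coding gene and run away from it, a divergent arrangement in which 1 promoter region serves both directions, and some act on neighbouring genes, on chromatin or as decoys for proteins and microRNAs. SLERT itself is spliced out of TBRG4, ends in a snoRNA on either side, and is best known for acting on the DEAD-box helicase DDX21 in the nucleolus.

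Libraries held 14.46 to 17.23 M counts. At the SLERT locus, SNORA5C, which forms 1 end of SLERT, had 1926 reads over the OE libraries, against 16 over the HCT116 controls. It had 37 reads over the KD libraries, against 37 over the LoVo controls, so the knockdown was not visible at this readout and KD stands for the label. The summed level of 11 colorectal epithelial markers was 4560 to 4858 CPM in OE and 4513 to 4623 CPM in HCT116 controls, and 6944 to 7487 CPM in KD and 8178 to 8654 CPM in LoVo controls. The 9 markers of fibroblasts and endothelium summed to 70.4 to 76.4 CPM in OE and 79.1 to 85.4 CPM in HCT116 controls. In LoVo they summed to 3.66 to 4.95 CPM in KD and 15.2 to 16.4 CPM in controls. Of the 9, 3 were at 0 in OE, 3 in KD and 2 in each control group. Leukocyte, hepatocyte and retinal markers, the last because a protocol text in the labels names retinas, summed to at most 13.5 CPM in any library. The part of these markers in the changes described was not tested.

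The 280 LINC genes took a small share of the RNA. Their levels summed to 940.2 ± 10.6 CPM in OE and 1005 ± 18.5 CPM in HCT116 controls, and to 1475 ± 4.70 CPM in KD and 1487 ± 27.4 CPM in LoVo controls (SD, n = 3 each). The OE sums ran from 933 to 952 CPM and lay below the HCT116 control sums, 987 to 1023 CPM. A few genes carried much of this: the 10 most abundant held 33.3% of the sum in OE, 33.2% in HCT116 controls, 31.7% in KD and 31.9% in LoVo controls. The median LINC gene had 1.27 CPM in OE, 1.30 CPM in HCT116 controls, 2.01 CPM in KD and 2.03 CPM in LoVo controls. Only 24 genes in OE and 24 in HCT116 controls reached 10 CPM, with 44 in KD and 43 in LoVo controls.

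The lines shared 112 of the 280 genes. HCT116 alone accounted for 63 genes and LoVo alone for 105, and 96 genes passed in all 4 groups. At the minimum itself, LINC00665 passed with a highest group mean of 1.00 CPM, LINC02982 with 1.01 CPM and LINC00648 with 1.01 CPM, whereas LINC01852 at 0.995, LINC02236 at 0.982 and LINC01764 at 0.979 CPM did not pass. Between control cells, 55 genes had a mean CPM over 10-fold higher in LoVo and 38 had one over 10-fold higher in HCT116. Since levels chose the genes, these are descriptions without a test.

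**Figure D1:**
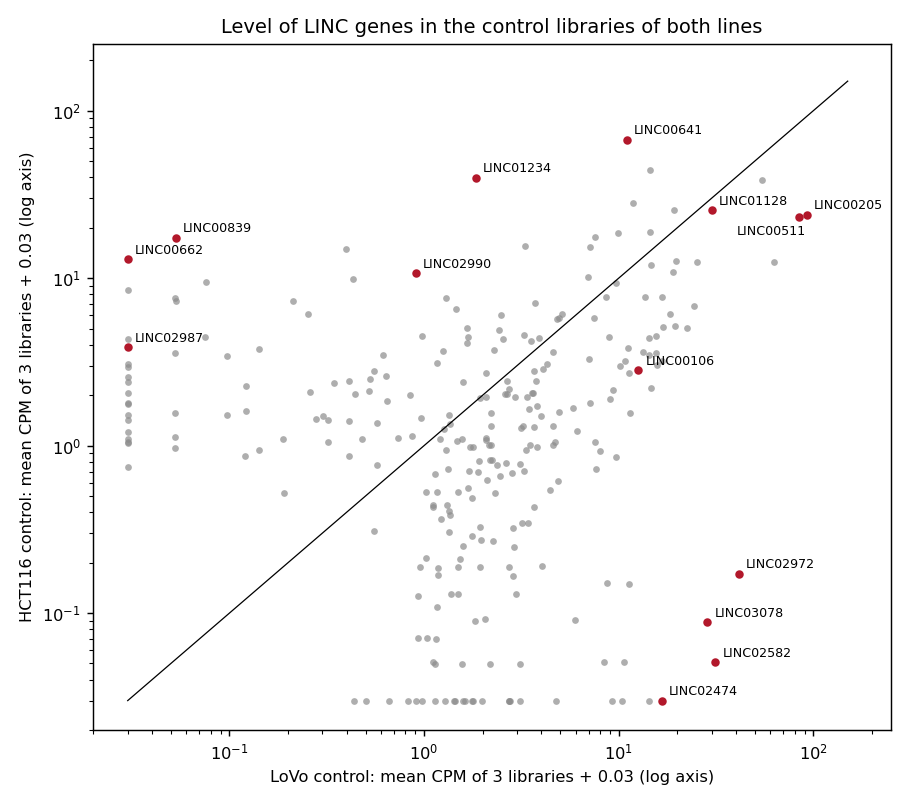
Mean CPM of each of the 280 LINC genes in LoVo control (x) and HCT116 control (y), 3 libraries each, on log axes with 0.03 added. The line marks equal levels. Points along the left and lower edges are genes with no read in the control libraries of 1 line. LINC02474 is among them, with 16.6 CPM in LoVo controls.

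Per length, the order of the genes differed between the lines. On the deposited FPKM scale (fragments per kilobase of gene, scaled to the library total), the highest level in HCT116 was that of LINC02990, an antisense transcript on chromosome 8, with 14.4 ± 2.2 FPKM in OE and 19.6 ± 1.1 FPKM in HCT116 controls (SD, n = 3 each). LINC00641 came next with 10.6 ± 0.67 FPKM in OE and 11.7 ± 0.19 FPKM in HCT116 controls. LINC02331, LINC03061, LINC00173 and LINC03057 followed between 6.78 and 7.62 FPKM in HCT116 controls, and neighbours in that order lay within about 1 SD of each other. In LoVo the highest was LINC03078, with 38.3 ± 2.3 FPKM in KD and 39.5 ± 3.4 FPKM in LoVo controls, although it had only 2 reads over the OE libraries and 3 over the HCT116 controls. Behind it in LoVo controls stood LINC00106 at 21.2 ± 1.7 and LINC02972 at 18.1 ± 1.0 FPKM. LINC02582 at 12.6 ± 0.57, LINC02474 at 12.1 ± 1.3 and LINC00205 at 12.1 ± 0.53 FPKM did not differ beyond their spread.

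Several of the genes were read in 1 line and not in the other. No HCT116 library had a read of 17 of them, which allows a level of up to 0.0304 CPM (3 counts over the 6 HCT116 libraries), and no LoVo library had a read of 12, which allows up to 0.0333 CPM. These limits cover counting error only. The most abundant of the LoVo genes were LINC02474, with 20.2 ± 0.76 CPM in KD and 16.6 ± 1.7 CPM in LoVo controls, LINC02864, LINC01915, LINC00667 and LINC01594. The most abundant of the HCT116 genes were LINC01270, with 3.80 ± 0.25 CPM in OE and 4.31 ± 0.76 CPM in HCT116 controls, LINC02987, LINC00973, LINC00326 and LINC01876. LINC00839 had 18.04 ± 1.3 CPM in OE and 17.4 ± 0.76 CPM in HCT116 controls but 0 reads over the KD and 1 read over the LoVo control libraries.

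LINC02987 and LINC00662 lie on opposite strands of chromosome 19 and overlap at their 5′ ends, with starts 477 bases apart in GENCODE v29, so without strand reads of the overlap may not be told apart. LINC00662 has been studied as a tumour-associated RNA. It had 13.3, 13.1 and 12.7 CPM in the OE libraries, against 13.4, 12.9 and 12.6 CPM in the HCT116 controls. In LoVo it had 1 read over the KD libraries and 0 over the controls. LINC02987 had 4.03, 4.35 and 4.25 CPM in the OE libraries, against 3.08, 4.23 and 4.22 CPM in the HCT116 controls, and no read in LoVo. Both genes of the pair were thus read in HCT116 in every library while LoVo held a single read of the pair. The 300 bases around each start are shown because both genes were read in every HCT116 library and start close together. They are RefSeq windows on GRCh38.p14, chr19:27793891-27794190 on the minus strand and chr19:27793181-27793480 on the plus strand, with the first 50 transcribed bases in capitals.
LINC00662: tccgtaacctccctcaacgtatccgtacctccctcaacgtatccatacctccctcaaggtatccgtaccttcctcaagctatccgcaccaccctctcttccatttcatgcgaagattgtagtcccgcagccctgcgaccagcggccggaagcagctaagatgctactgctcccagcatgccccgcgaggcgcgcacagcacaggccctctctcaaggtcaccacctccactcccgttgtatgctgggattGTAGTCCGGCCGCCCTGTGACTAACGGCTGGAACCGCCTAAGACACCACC
LINC02987: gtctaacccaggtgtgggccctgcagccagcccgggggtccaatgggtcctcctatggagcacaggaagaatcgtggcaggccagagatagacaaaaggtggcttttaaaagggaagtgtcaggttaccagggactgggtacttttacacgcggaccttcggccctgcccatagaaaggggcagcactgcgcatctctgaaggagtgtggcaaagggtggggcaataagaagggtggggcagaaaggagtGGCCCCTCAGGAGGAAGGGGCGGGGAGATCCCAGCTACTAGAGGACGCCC
The windows had the same GC content, 59.3%, but 20 CpG dinucleotides in the LINC00662 window and 8 in the LINC02987 window, where the median promoter of the RefSeq table had 14.

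Of the 271 genes with a GENCODE v29 entry, 222 were typed there as lincRNA, 22 as processed transcript and 17 as antisense, and 2, LINC02693 and LINC03040, were still typed as protein coding. The median gene had 4 exons after merging its transcripts, with 29 genes of a single exon and 57 exons in LINC00511. Median exonic length was 2253 bases and median span 11695 bases. The exons of 19 genes overlapped coding exons of another gene, which matters here because the sources used do not say whether reads were counted by strand. Of 31-base words in each gene's transcripts, a median of 3.63% also occurred in transcripts of another gene, and 9 of the 271 genes shared over 50% of theirs.

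With SLERT overexpression in HCT116, no LINC gene passed the test. After a filter on low counts 197 of the 280 were tested, and 0 had an adjusted p under 0.05 by edgeR's quasi-likelihood test with Benjamini-Hochberg adjustment over all genes, against 0.914% of all 15980 genes tested (0.507% higher, 0.407% lower). At an unadjusted p under 0.05 there were 21, a count given without the share of all genes, so no excess is read from it. The limma fits on log2 FPKM also called 0. DESeq2 called 0 of the 9 LINC genes for which it gave an adjusted p. The median log2 fold change was -0.08 over the LINC genes, of which 78 of 197 were above 0, and -0.0023 over all genes. Groups did not overlap in 32 of the 197 LINC genes, 16.2%, against 19.1% of all genes tested. OE was higher in 7 of these, 3.55% of the LINC genes against 7.4% of all genes, and lower in 25, 12.7% against 11.7%.

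The lowest adjusted p in HCT116 was that of LINC02732, an RNA read in HCT116 with a single read in LoVo. It had 4.15, 4.596 and 5.03 CPM in the OE libraries, against 7.84, 7.59 and 6.27 CPM in the HCT116 controls. All 3 OE libraries lay below all 3 controls. The log2 fold change was -0.64 (SE 0.16) with an adjusted p of 0.0558 in edgeR. The adjusted p was 0.0291 without HCT116 control 3 and 0.0361 without the filter on low counts. LINC03040 had an adjusted p of 0.123 and of 0.0421 without OE library 1, with log2 fold changes of -0.39 over all 6 libraries and -0.53 without that library. LINC02732 was named because of this p, after its values were seen.

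**Figure D2:**
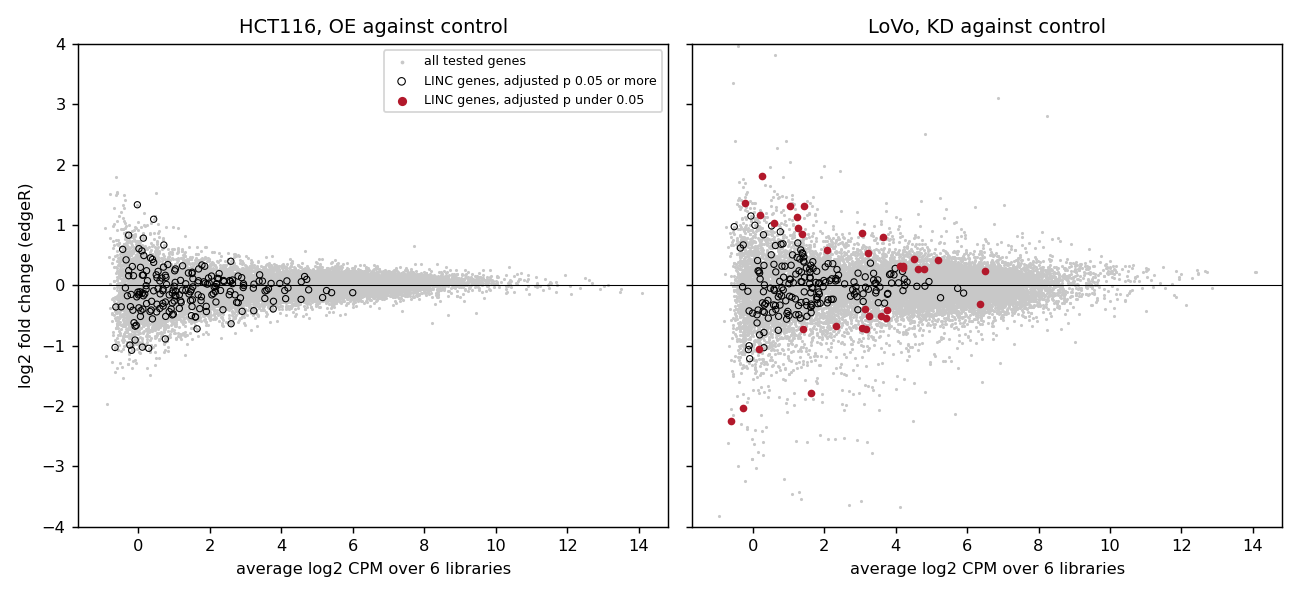
Log2 fold change against average log2 CPM over 6 libraries for HCT116 (left) and LoVo (right), with all tested genes in grey and LINC genes as circles, filled where the edgeR adjusted p was under 0.05. The 35 filled circles are all in LoVo, and 2 other genes in HCT116 and 6 in LoVo lie beyond the axis limit of 4.

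In LoVo, 35 LINC genes changed with the KD label, 21 higher and 14 lower. The rises were led by LINC01091, LINC00507, LINC02889 and LINC01133, and the falls by LINC02990, LINC01694 and LINC00882. Of 223 LINC genes tested, 15.7% passed, 9.42% higher and 6.28% lower, against 26.3% of all 16253 genes (12.6% higher, 13.7% lower), by the same edgeR test. The LINC genes were measured less precisely: the median SE of the log2 fold change was 0.248 for them and 0.107 for all genes, at a median of 40.8 and 292 counts a library. Among called genes the median size of the log2 change was 0.70 for LINC genes and 0.36 for all genes. Of the 35 called LINC genes 11 reached 2-fold, against 380 of all 4278 called genes. These 11 include 5 genes, LINC01091 and LINC00507 among them, whose selection itself favours a difference, as the next paragraph gives. Over all LINC genes tested the median log2 fold change was 0.01, and 112 of 223 were above 0. In 64 LINC genes, 28.7%, KD and control libraries did not overlap, against 39.5% of all genes tested, and all 35 called genes were among them. KD was higher in 27, 12.1% of the LINC genes against 16% of all genes, and lower in 37, 16.6% against 23.5%.

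The rule that chose the genes bears on 5 of these calls. Of the 35, 28 were among the 185 LINC genes that reached 1 CPM in both LoVo arms, 17 higher and 11 lower. LINC00507, LINC00508, LINC01091 and LINC01738 reached it in KD only and LINC02904 in the LoVo controls only, of all 4 groups, so for these 5 the choice itself favours a difference. LINC01694, which in LoVo reached it in the controls only, and LINC02990, which reached it in neither LoVo arm, also met it in HCT116. DESeq2 called 18 of the 35 and limma on log2(FPKM + 1) called 10, and fits without 1 library called between 22 (without LoVo control 2) and 38 (without KD 1) LINC genes, with 17 of the 35 called in every such fit.

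**Figure D3:**
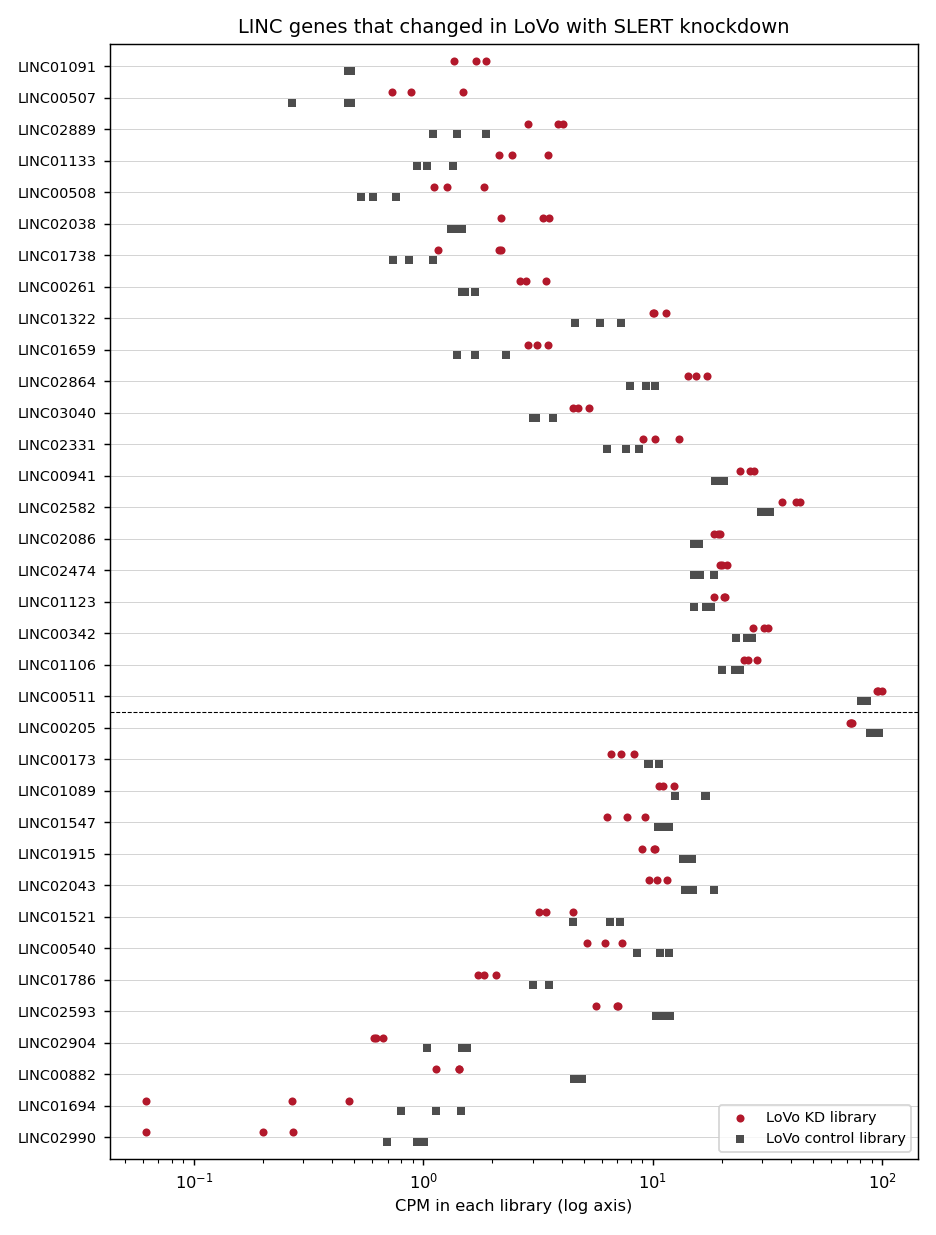
CPM (log axis) in each KD library (red circles, upper) and LoVo control library (grey squares, lower) for the 35 LINC genes with an edgeR adjusted p under 0.05, ordered by log2 fold change, with rises above the dashed line and falls below it. KD and control points do not overlap in any row, and the 2 genes at the highest levels, LINC00511 and LINC00205, had log2 fold changes of 0.24 and -0.30.

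Among the falls, LINC00882 had the lowest edgeR adjusted p. It is a gene of 13 exons on the minus strand at chr3:106836811-107240641 (GRCh38). It had 1.42, 1.43 and 1.13 CPM in the KD libraries, against 4.89, 4.55 and 4.63 CPM in the LoVo controls. All 3 KD libraries were far below all 3 controls, at 21, 23 and 17 reads against 73, 68 and 67 reads. The log2 fold change was -1.78 (SE 0.24, edgeR adjusted p = 6.59e-06). The call held in every fit without 1 library. It was lost in the 3 limma fits on log2 FPKM, at adjusted p values up to 0.129.

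LINC02990, the gene highest per length in HCT116, was near the detection limit in LoVo and fell there. It had 4, 1 and 3 reads in the KD libraries, against 15, 14 and 10 reads in the LoVo controls. The groups did not overlap, and the log2 fold change was -2.24 (SE 0.57, edgeR adjusted p = 0.00544). LINC01694, at chr21:45593654-45603056, had 7, 1 and 4 reads in KD, against 17, 12 and 21 reads in the controls. Its log2 fold change was -2.04 (SE 0.54), with an edgeR adjusted p of 0.00696, and of 0.0563 without LoVo control 3. Both rest on few reads, and the sizes of their changes are accordingly wide.

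The other falls were smaller. LINC02593 had 6.99, 7.02 and 5.67 CPM in KD, against 11.9, 11.2 and 10.3 CPM in LoVo controls, a log2 fold change of -0.73 (SE 0.14, edgeR adjusted p = 0.000518). LINC00540 had 7.33, 5.15 and 6.201 CPM in KD, against 8.51, 10.7 and 11.8 CPM in the controls, with a log2 fold change of -0.70. In neither gene did the groups overlap. LINC02043 at -0.54 and LINC01915 at -0.51 fell with calls that held in every fit without 1 library. LINC01547 fell by 0.51 on the log2 scale, with an edgeR adjusted p of 0.0108, and of 0.0672 without KD 2. LINC02904, LINC01786, LINC01521, LINC01089 and LINC00173 fell by 0.40 to 1.05 on the log2 scale, and each lost its call in 3 to 6 of the 6 fits without 1 library, at adjusted p values up to 0.17. LINC01089, known as LIMT, is repressed by epidermal growth factor in mammary cells. Its exons cover 1724 bases of coding exons of RHOF, whose own log2 fold change was -0.33 with an adjusted p of 0.328.

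Among the rises, LINC01091 had the largest log2 fold change. It reached 1 CPM in KD only, of all 4 groups, so the choice of genes itself favours a rise. It had 1.70, 1.37 and 1.87 CPM in the KD libraries, against 0.469, 0.468 and 0.484 CPM in the LoVo controls. That is 25, 22 and 28 reads in KD against 7, 7 and 7 reads in the controls, with no overlap. The log2 fold change was 1.80 (SE 0.39, edgeR adjusted p = 0.00152). The RefSeq window around its start is shown because it holds 2 copies of the TATA box letters TATAAA, in capitals, at 57 bases before and 17 bases after the start (GRCh38.p14, chr4:123649741-123650040, plus strand).
LINC01091: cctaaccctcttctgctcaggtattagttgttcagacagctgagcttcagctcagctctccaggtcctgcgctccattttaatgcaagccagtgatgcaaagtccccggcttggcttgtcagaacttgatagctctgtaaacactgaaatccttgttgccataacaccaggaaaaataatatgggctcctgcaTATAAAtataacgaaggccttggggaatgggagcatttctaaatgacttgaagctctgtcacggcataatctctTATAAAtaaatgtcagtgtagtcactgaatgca

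LINC02889, a gene of 16 exons on chromosome 7, also rose. It had 2.85, 3.85 and 4.07 CPM in KD, against 1.41, 1.87 and 1.11 CPM in LoVo controls. The lowest KD library lay above the highest control, and the log2 fold change was 1.32 (SE 0.27, edgeR adjusted p = 0.000778). Its window is shown as the only one of a called gene with the AP-1 letters TGANTCA, in capitals, starting 31 bases before the start (GRCh38.p14, chr7:17558860-17559159, minus strand).
LINC02889: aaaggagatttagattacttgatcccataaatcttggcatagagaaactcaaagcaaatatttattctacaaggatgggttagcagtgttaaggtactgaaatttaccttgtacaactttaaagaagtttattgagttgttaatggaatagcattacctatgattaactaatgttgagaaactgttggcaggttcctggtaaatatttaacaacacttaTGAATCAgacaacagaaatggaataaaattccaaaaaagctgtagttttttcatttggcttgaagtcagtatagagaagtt
Windows were found for 188 of the 280 genes, 15 of those that rose and 11 of those that fell. On either strand TATAAA occurred in 3 of the 15 and 1 of the 11, in 12.2% of all 188 and in 11.5% of the 35116 promoters of the table. TGANTCA occurred in 1 of the 15 and 0 of the 11, in 10.1% of the 188 and in 7.71% of the table. The letters of a CRE (TGACGTCA), an EGR site (GCGTGGGCG) and an E-box (CACGTG) were in none of the 26 windows, and in 1.85%, 0.794% and 7.26% of the table. No motif overlaps another in letters as searched.

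Some of the genes that rose have been studied in tumours. LINC01133, which binds the splicing factor SRSF6 in colorectal cancer cells, had 2.44, 3.48 and 2.13 CPM in KD, against 1.34, 0.937 and 1.04 CPM in LoVo controls. The groups did not overlap, with a log2 fold change of 1.31 (SE 0.31, edgeR adjusted p = 0.00297). LINC00261, an endodermal RNA made next to FOXA2 and needed for its activation in differentiating human stem cells, had 2.65, 3.42 and 2.80 CPM in KD, against 1.68, 1.47 and 1.52 CPM in the controls. Its log2 fold change was 0.96 (SE 0.26, edgeR adjusted p = 0.00888). Its exons cover 4779 bases of AL121722.1, a gene on the same strand annotated as coding, and 86.3% of its 31-base words occur in other genes' transcripts, so reads of these 2 genes cannot be told apart with certainty.

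LINC00941 and LINC00511 rose less, from higher levels. LINC00941, which has been linked to metastasis in colorectal cancer, had 27.5, 26.6 and 23.9 CPM in KD, against 20.4, 19.5 and 18.6 CPM in LoVo controls. Its log2 fold change was 0.44 (SE 0.096, edgeR adjusted p = 0.00145). LINC00511, an RNA of many exons that associates with the histone methyltransferase EZH2, had 99.4, 94.6 and 96.0 CPM in KD, against 85.5, 81.1 and 85.0 CPM in the controls, a log2 fold change of 0.24 (SE 0.064, edgeR adjusted p = 0.00842). In both, every KD library was above every control. Of 34 LINC genes listed for their study in tumours, 19 were expressed here, and of the 14 tested in LoVo these 4 rose and 0 fell, 28.6% called against 26.3% of all genes tested, at a median log2 fold change of 0.06 over the 14. In HCT116 16 were tested. Members of the list at higher levels that did not pass included LINC01128, with 30.7 ± 0.34 CPM in KD and 30.1 ± 2.8 CPM in LoVo controls, LINC00174, with 56.4 ± 2.0 CPM in KD and 62.9 ± 7.6 CPM in the controls, and LINC00467, with 14.7 ± 0.86 CPM in KD and 14.6 ± 0.90 CPM in the controls. LINC01234, LINC00460 and LINC00659 of the list had 36.9, 6.10 and 12.3 CPM in OE and 39.8, 7.53 and 15.0 CPM in HCT116 controls. Their group means in LoVo were under 2 CPM. LINC01234 still reached the 1 CPM minimum there, with 0.95, 1.92 and 0.80 CPM in KD. It had 1.74, 1.54 and 2.14 CPM in LoVo controls.

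Of 40 long non-coding RNAs listed from outside the LINC symbols, 30 were tested in LoVo, where 5 rose and 1 fell, against 26.3% of all genes called. CASC19 rose with a log2 fold change of 0.68 and CRNDE with 0.63. OIP5-AS1 at 0.29, NORAD, a decoy for Pumilio proteins, at 0.27 and NEAT1, the scaffold of paraspeckles, at 0.21 also rose, while HOTTIP, from the end of the HOXA cluster, fell by 0.39 on the log2 scale. In HCT116 edgeR called 0 of 29, against 0.914% of all genes tested. At an unadjusted p under 0.05 there were 3, again given without the share of all genes.

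In 2 places neighbouring LINC genes rose together. On chromosome 18, LINC02582 and LINC02864 start 60461 bases apart and run away from each other, with hardly a read in HCT116. LINC02582 had 42.0, 43.8 and 36.7 CPM in KD, against 31.8, 32.4 and 29.7 CPM in LoVo controls, a log2 fold change of 0.41 (SE 0.086, edgeR adjusted p = 0.00103). LINC02864 had 14.2, 17.1 and 15.5 CPM in KD, against 9.32, 10.2 and 7.95 CPM in the controls, a log2 fold change of 0.80 (SE 0.13, edgeR adjusted p = 6.21e-05). In both the groups were apart. On chromosome 12, LINC00507, a cortical RNA of primates, and LINC00508 rose, with log2 fold changes of 1.37 and 1.17 and edgeR adjusted p values of 0.0349 and 0.0311. Both reached 1 CPM in KD only, of all 4 groups, so the choice of genes itself favours a rise in each. LINC00508 lies on the opposite strand within LINC00507, so without strand their reads may not be told apart, and leaving out any LoVo control lost either call (adjusted p 0.0594 to 0.134), as did leaving out KD 2 for LINC00507 (0.237) and KD 1 or KD 3 for LINC00508 (0.145 and 0.0621). Beside them, LINC02393 had a log2 fold change of 0.99 with an adjusted p of 0.0623 and LINC02441 one of 0.66 with 0.239. Of 17 pairs of LINC genes that start within 100 kb of each other, a distance chosen after seeing the data, 12 had both genes tested in LoVo, 2 had both called and 5 had 1 called. LINC02086 and LINC03057, which start 100 bases apart on opposite strands beside the HOXB cluster, are 1 of the 5: LINC02086 rose by 0.33 (edgeR adjusted p = 0.0193; 0.0527 without LoVo control 1 and 0.0767 without LoVo control 3) and LINC03057 was at -0.09 with an adjusted p of 0.62.

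LINC01106 and LINC01123 share most of their sequence, so their values may not be separate measurements, though each was counted as a call. They lie in copies of a duplicated stretch of chromosome 2, at chr2:110375138-110384442 on the minus strand and chr2:109987063-109996140 on the plus strand (GRCh38). Of the 31-base words in LINC01106 transcripts 90.3% also occur in LINC01123, and 71.1% the other way round. The RefSeq windows around their starts are shown because they are the same sequence: over the 289 bases they share all 289 are identical, in capitals (GRCh38.p14, chr2:110384487-110384786, minus strand, and chr2:109986730-109987029, plus strand).
LINC01106: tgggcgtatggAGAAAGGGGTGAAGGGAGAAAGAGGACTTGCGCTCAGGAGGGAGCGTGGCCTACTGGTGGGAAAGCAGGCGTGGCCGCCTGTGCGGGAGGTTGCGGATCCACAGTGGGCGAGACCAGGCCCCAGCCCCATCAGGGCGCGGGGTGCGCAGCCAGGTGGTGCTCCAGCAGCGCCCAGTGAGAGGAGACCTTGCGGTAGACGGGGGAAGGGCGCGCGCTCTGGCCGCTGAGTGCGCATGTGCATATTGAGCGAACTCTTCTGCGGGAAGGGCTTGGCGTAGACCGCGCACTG
LINC01123: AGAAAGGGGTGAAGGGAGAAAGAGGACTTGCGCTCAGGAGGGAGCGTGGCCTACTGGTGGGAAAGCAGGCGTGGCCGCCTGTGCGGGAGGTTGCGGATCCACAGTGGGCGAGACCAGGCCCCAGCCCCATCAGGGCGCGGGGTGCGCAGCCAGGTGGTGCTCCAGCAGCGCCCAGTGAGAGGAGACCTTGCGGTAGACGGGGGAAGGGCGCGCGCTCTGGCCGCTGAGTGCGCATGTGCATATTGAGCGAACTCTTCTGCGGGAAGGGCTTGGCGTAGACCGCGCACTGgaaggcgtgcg
LINC01106 had 25.0, 25.9 and 28.5 CPM in KD, against 24.1, 22.8 and 19.98 CPM in LoVo controls, and LINC01123 had 18.5, 20.7 and 20.5 CPM in KD, against 15.1, 16.99 and 17.98 CPM in the controls. Their log2 fold changes were 0.28 (SE 0.096) and 0.29 (SE 0.11), with edgeR adjusted p values of 0.0351 and 0.0478. Either call was lost without KD 3 (adjusted p = 0.164 and 0.135), LoVo control 2 (0.0668 and 0.0884) or LoVo control 3 (0.195 and 0.0549), and that of LINC01123 also without KD 2 (0.102) or LoVo control 1 (0.21). How the counting split reads between copies is not given in the sources used here.

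The remaining rises were LINC01322 at 0.86, LINC02038 at 1.13 and, with calls that were lost in 2 to 5 of the 6 fits without 1 library at adjusted p values up to 0.163, LINC01738 at 1.04, LINC01659 at 0.85, LINC03040 at 0.59, LINC02331 at 0.54, LINC02474 at 0.32 and LINC00342 at 0.28 on the log2 scale. LINC01322, a long gene of 12 exons, had 10.1, 11.4 and 10.002 CPM in KD, against 7.24, 5.89 and 4.56 CPM in LoVo controls (edgeR adjusted p = 0.000285). LINC00342, LINC01106 and LINC02086 lie outside the rule by which genes were named and were named after their values were seen. LINC00461, the host of MIR9-2, and LINC01138, the host of MIR5087, were the only members whose exons or introns hold a microRNA of the RefSeq table, and neither passed in LoVo (log2 fold changes of -0.28 and -0.20, adjusted p of 0.467 and 0.555).

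Of the 35 called LINC genes 21 had a nearest protein-coding gene that was tested, and 6 of these 21 neighbours were called, 28.6% against 26.3% of all genes tested. In 4 pairs both genes moved the same way and in 2 they moved in opposite directions. Over all 162 pairs with both genes tested in LoVo, 53 neighbours were called. In 91 of these 162 pairs the log2 fold changes had the same sign, called or not. LINC02593 and SAMD11, which start 2912 bases apart and run away from each other, both fell, SAMD11 with a log2 fold change of -1.12 (SE 0.28, edgeR adjusted p = 0.00458). LINC02904 fell beside LY6E, a GPI-anchored surface protein, at -0.49, LINC00941 rose beside CAPRIN2, an RNA-binding protein, at 0.50, and LINC02038 rose with OPA1, which drives fusion of mitochondrial inner membranes, at 0.24, though 250880 bases separate the starts of that pair. The opposite pairs were LINC02086 with HOXB7 at -0.23 and LINC03040 with TMEM63B at -0.28.

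**Figure D4:**
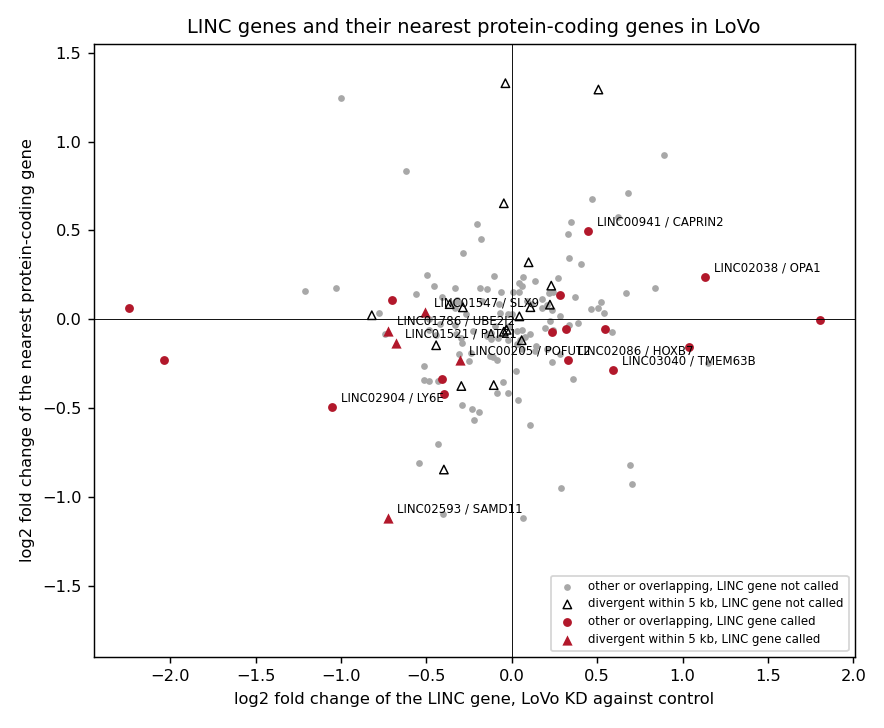
Log2 fold change of each LINC gene (x) and of its nearest protein-coding gene (y), LoVo KD against control, where both were tested, with triangles for divergent pairs within 5 kb and red for called LINC genes. Of the labelled divergent pairs, the point of LINC02593 and SAMD11 lies far below 0 on both axes, while SLX9, UBE2J2, PATZ1 and POFUT2 lie between 0.04 and -0.23 beside LINC genes that fell.

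Of 25 LINC genes with a divergent coding partner within 5 kb, 23 were tested in LoVo. Of these 5 were called, 21.7%, and all 5 fell, while 8 of the 23 partners were called, 34.8%, against 26.3% of all genes tested. LINC00205, annotated as a bidirectional promoter RNA, starts 152 bases from POFUT2, which adds fucose to thrombospondin repeats. LINC00205 had 73.4, 72.4 and 73.5 CPM in KD, against 96.5, 91.6 and 88.5 CPM in LoVo controls. The groups were well apart, with a log2 fold change of -0.30 (SE 0.065, edgeR adjusted p = 0.00135). POFUT2 had one of -0.23 (SE 0.095, adjusted p = 0.0806). LINC01547 starts 97 bases from SLX9, whose log2 fold change was 0.04 (SE 0.077, adjusted p = 0.747). LINC01786 beside UBE2J2 and LINC01521 beside PATZ1 had neighbours at -0.06 and -0.14, with adjusted p values of 0.567 and 0.239. Whether any LINC gene differed from its neighbour was not tested.

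Both lines could be compared for 141 LINC genes tested in each. The change was taken with more SLERT by label, OE minus control in HCT116 and control minus KD in LoVo, and the difference between the lines was tested over all 12 libraries. It passed for 7 of the 141, or 4.96%, against 14.6% of all 18199 genes in that edgeR fit. Of the 35 genes called in LoVo, 19 were tested in HCT116 and 16 were not. Of the 7, all but LINC00638 were also called in LoVo.

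LINC00882, LINC02990 and LINC01694 had negative log2 fold changes in both contrasts, in OE and in KD relative to their own controls. LINC00882 had 0.732, 0.181 and 0.523 CPM in OE, against 1.04, 1.35 and 0.683 CPM in HCT116 controls, which overlap, and the difference between the lines was -2.86 (SE 0.50, edgeR adjusted p = 0.00026) on the log2 scale. LINC02990 had 8.42, 8.59 and 6.47 CPM in OE, against 11.1, 9.94 and 10.9 CPM in HCT116 controls, which do not overlap, with a difference of -2.67 (SE 0.50, edgeR adjusted p = 0.00058). LINC01694 had 1.89, 2.54 and 2.68 CPM in OE, against 2.15, 3.41 and 3.66 CPM in the controls, with a difference of -2.39 (SE 0.58, edgeR adjusted p = 0.0058). Their own HCT116 log2 fold changes, -1.08, -0.42 and -0.35, had adjusted p values of 0.283, 0.128 and 0.566.

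LINC00941 had positive log2 fold changes in both contrasts. It had 8.42, 6.35 and 5.23 CPM in OE, against 5.11, 5.82 and 4.47 CPM in HCT116 controls, a log2 fold change of 0.40 with an adjusted p of 0.29, and the difference between the lines was 0.84 (SE 0.20, edgeR adjusted p = 0.00395). The calls of these 4 held without any 1 library. LINC00638, LINC02593 and LINC01123 passed as well, at -1.26, -0.69 and 0.60, with adjusted p values of 0.0416, 0.0382 and 0.0397, and lost the call in 8, 8 and 9 of the 12 fits without 1 library, at adjusted p values up to 0.139. LINC00638 had 0.976, 0.423 and 0.457 CPM in OE, against 1.45, 1.29 and 1.12 CPM in HCT116 controls, and 4.27, 3.91 and 3.201 CPM in KD, against 4.83, 5.08 and 3.80 CPM in LoVo controls.

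**Figure D5:**
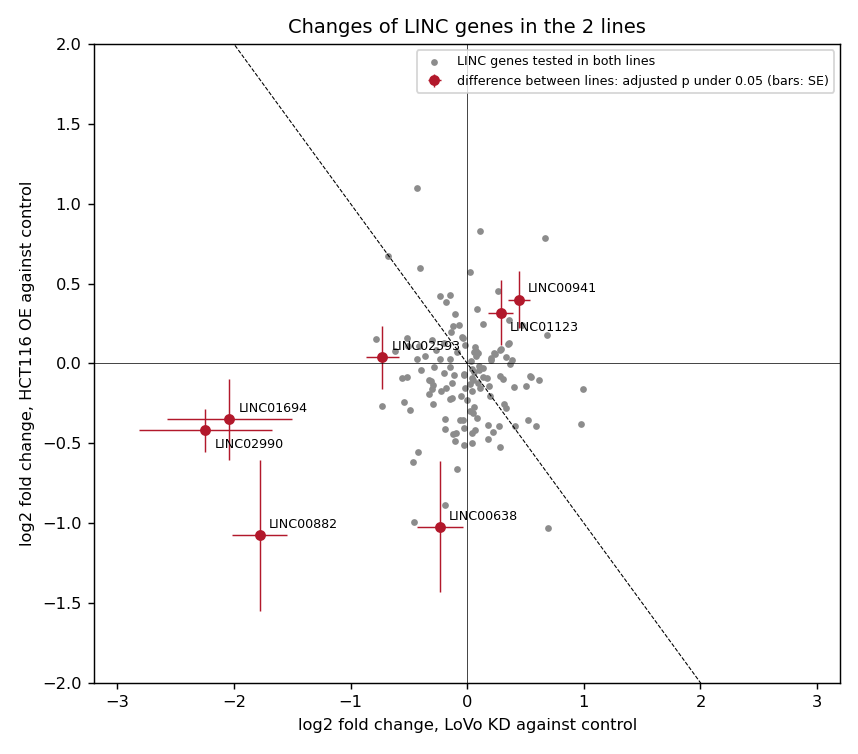
Log2 fold change in LoVo (KD against control, x) and in HCT116 (OE against control, y) for 141 LINC genes, with the 7 whose change with more SLERT differed between the lines in red and bars for their SE. The dashed line marks equal change with more SLERT in both lines, with LINC00941 and LINC01123 above it and the other 5 red points below it.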

How the data were processed

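RNA of HCT116 and LoVo cells was sequenced in 12 libraries after Trizol extraction and Illumina TruSeq preparation from 1 ug of total RNA, per the labels' protocols. The submitters' processing notes name HISAT2 2.1.0 and the build GRCh38. Of the read counter, its annotation and its strand setting nothing is given in the sources used here. The deposited count table holds whole-number counts per Ensembl gene, as its values show, and the deposited FPKM table holds the same counts divided by gene length and column total. Columns headed Vector were taken as HCT116 control by their heading, the least certain mapping.

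Symbols came from a table of gene names and from GENCODE v29, which also gave coordinates. The members, lists and the rule for naming genes were chosen with earlier results of these data known. Genes were named if called in HCT116, among the 14 largest rises or falls in LoVo, among the 6 highest FPKM per control, nearest the CPM minimum, on the tumour list, among the 5 highest without reads in the other line, or called for the difference between the lines, with the nearest coding genes of those called.

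Each line was tested with edgeR 4.0.16 in R 4.3.3 (quasi-likelihood F test, TMM, filterByExpr) over all genes, at an adjusted p under 0.05. After filtering, HCT116 had 15980 genes and LoVo 16253. Libraries of a group correlated at 0.993 or more in log2 CPM, with a chi-square per degree of freedom of 2.40 to 6.63, so none was a duplicate. The procedure was tested on simulated data. Alternatives were DESeq2 1.42.0, other scalings, no filter, limma 3.58.1 on log2 FPKM, a replicate block and leaving out libraries. Promoter windows and microRNAs are RefSeq's on GRCh38.p14. Intervals and limits from counts cover counting error only.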

Additional observations from a re-analysis of the deposited data

Results flagged for a closer look

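The change of 7 LINC genes with more SLERT by label differed between HCT116 and LoVo in the edgeR fit over all 12 libraries, at an adjusted p under 0.05. They were 4.96% of the 141 LINC genes tested in both lines, against 14.6% of all 18199 genes in that fit. The 18199 genes were not limited in this way, and LINC genes not tested in both lines were left out of the 7. Line and type of manipulation, overexpression or knockdown, cannot be told apart in this contrast. The differences, HCT116 minus LoVo on the log2 scale, were -2.86 for LINC00882, -2.67 for LINC02990, -2.39 for LINC01694, -1.26 for LINC00638, -0.691 for LINC02593, 0.843 for LINC00941 and 0.601 for LINC01123. SNORA5C, the readout of the SLERT locus, was higher in OE than in HCT116 controls and had 37 reads in KD and 37 in LoVo controls, and the part of this in the differences was not tested. LINC01123 shares its sequence with LINC01106. The calls of LINC00638, LINC02593 and LINC01123 were lost in 8, 8 and 9 of the 12 fits without 1 library.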

How the results depend on the processing

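No alternative turned the direction of any of the 35 changes in LoVo. The number of LINC genes called in LoVo, 35, was 35 with RLE or upper quartile factors, 31 without the filter on low counts and 31 with all 12 libraries in 1 fit, 29 of them shared. It was 18 with DESeq2, 10 with limma on log2(FPKM + 1), 11 on log2(FPKM + 0.1) and 3 on log2(FPKM + 0.1) without a filter, and ran from 22 to 38 without 1 library. Calls over all genes in LoVo moved as well, from 4278 of 16253 to 3386 with DESeq2. In the same limma fits they were 1607 of 23503, 1686 of 23503 and 1210 of 33675, and without 1 library they ran from 2769 to 4813. LINC02593 and LINC00205 kept their call in every alternative. In HCT116 the count was 0, with 1 without the filter on low counts (LINC02732) and 0 to 1 without 1 library. The count of differences between the lines, 7, was 5 without the filter and 6 with DESeq2 and ran from 4 to 9 without 1 library. The cause of these shifts was not tested. The number of LINC genes at the CPM minimum, 280, was 231 with GENCODE v29 symbols, 391 at a minimum of 0.5 CPM, 195 at 2 CPM, 282 with TMM-scaled totals and 277 to 284 without 1 library. Same-numbered LoVo libraries deviated together with r of 0.0953, 0.118 and 0.00763, and libraries of unlike number with r from -0.11 to 0.0199. KD 3 correlated best with control 1. The numbers were not taken to pair the libraries in the main fit, and whether libraries of 1 number share an effect was not tested. A replicate block gave 39 calls in LoVo, with the 35 among them, and 5588 calls over all genes, against 4278 without the block. No paired analysis was possible in HCT116 because the control columns carry no number from the labels. Few reads limit the result: the median LINC gene tested had 35.3 counts a library in HCT116 and 40.8 in LoVo, against 326 and 292 for all genes.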
